A study of Arabidopsis thaliana with 8 samples.

Results

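A set of 57 array probes carried signal in the *atpd* mutant of *Arabidopsis thaliana* and almost none in wild type (WT), out of 3439 probes measured. They were chosen by the deposited intensities themselves: a member needed a value above 0 on no fewer than 3 of the 4 *atpd* arrays and on at most 1 of the 4 WT arrays. The difference between the genotypes is therefore how the set was made, and it is described here without a test. The rule took 1.66% of all probes, and the mirrored rule (above 0 on at least 3 WT and at most 1 *atpd* arrays) took 22 probes, or 0.640%.

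Both genotypes were of ecotype Wassilevskija and grew on MS medium (Murashige and Skoog salts), and total RNA was hybridised. The *atpd* plants lack the ATP synthase delta subunit, and the WT plants served as the comparison. The labels give 4 arrays for each genotype, numbered 1 to 4, and state neither the tissue, the age, the mutant allele nor whether the arrays came from separate plants, so that the spread between arrays may be technical. In textbook terms, the delta subunit is a nucleus-encoded part of the chloroplast ATP synthase that ties the catalytic head to the membrane sector, and the enzyme makes ATP from the proton gradient built by photosynthetic electron transport. An array reports a transcript as the brightness of its probe, and how values of 0 came about is not given in the sources used here, so a 0 is not proof that the RNA was missing.

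The deposited intensities run on a linear, arbitrary scale from 0 to a ceiling of 100. Between 413 and 420 probes were at 0 on the *atpd* arrays and between 395 and 430 on the WT arrays, a mean of 416.5 ± 3.11 in *atpd* against 415.0 ± 16.5 in WT (SD, n = 4 each; two-sided exact permutation test over arrays, p = 0.943, where the smallest p possible is 0.0286). The median of the values above 0 was 0.613 to 0.705 on the *atpd* arrays and 0.279 to 0.303 on the WT arrays. The mutant gene could not be followed: none of the 4 chloroplast ATP synthase loci looked up had a probe of its own. Of marker loci for green tissue, 3 of 10 had a single-gene probe (PSAN, PRK and LHB1B2, at the 96.2nd to 99.8th percentile of brightness), and none of 6 root loci or 5 floral and seed loci had one, so the tissue could be checked only on its green side. All 3 green markers were called lower in *atpd*, with a log2 difference of -1.51 for PRK, -1.49 for PSAN and -1.14 for LHB1B2 (limma adjusted p = 2.61e-05, 0.000707 and 0.000717). Their part in the members' values was not tested. The main limma fit, here and below, counted the 4 arrays of a genotype as independent. With arrays 1 and 2, and arrays 3 and 4, as random blocks, calls over the table fell from 1513 to 924.

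The members held their signal on nearly every *atpd* array. Of the 57, 54 were above 0 on all 4 *atpd* arrays and 3 on 3 of them. On the WT arrays 35 members were at 0 throughout and 22 were above 0 on a single array. Those 22 WT values ran from 0.00135 to 0.206 with a median of 0.0358, and they were spread over the arrays, with 3 members above 0 on WT array 1, 5 on array 2, 9 on array 3 and 5 on array 4.

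In *atpd* the members covered nearly the whole range of brightness. The mean intensity over the *atpd* arrays above 0 ran from 0.0302 to 2.55, with a median of 0.571. Ranked among all values above 0 on the same array and averaged over arrays, the median member lay at the 42.0th percentile. The range of ranks was wide, since 11 members lay below the 10th percentile, 26 above the 50th, 7 above the 75th and 2 above the 90th. A percentile here is the place of a probe on the array, and brightness also depends on the probe, so it is no ranking of transcripts. By the mean over all 8 arrays, which takes in the WT zeros of the rule, no member was among the brightest 5% of probes, although probe 2692 lay at the 95.1st to 95.8th percentile on the *atpd* arrays alone. The 22 probes of the mirrored set were fainter on their own side, with a median WT mean of 0.0373 (0.0107 to 1.20).

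By the median, the *atpd* arrays repeated each other somewhat less closely for the members than over the table. Among the 54 with 4 values the coefficient of variation had a median of 14.9% (2.20% to 87.6%), against a median of 11.4% over the 3011 probes of the table above 0 on all *atpd* arrays. The values of *atpd* arrays 1 and 2 were both below those of arrays 3 and 4 in 27 of the 57 members (47.4%, against 45.5% of the 3011) and above them in 11 (19.3%, against 32.1%). The 57 include 3 members with a 0 on an *atpd* array, a kind of probe that the 3011 leave out. The median of the members above 0 was 0.548, 0.570, 0.537 and 0.587 on *atpd* arrays 1 to 4.

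Of the 57 probes, 13 are annotated with a single gene, 11 with several and 33 with none, or 22.8%, 19.3% and 57.9%. Over the table the shares are 20.1%, 25.3% and 54.6%. All 13 genes were found in the reference table. Their mean *atpd* intensities ran from 0.157 to 1.64 with a median of 0.747, and the other members had a median of 0.539. On the WT arrays 5 of the 13 were at 0 throughout and 8 were above 0 on 1 array. Roles given below are background, mostly at the level of the protein family, and no gene is named for a probe with several.

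The genes are taken in order of what their families are known for, with no test of any theme. AT2G46300, a member of the LEA hydroxyproline-rich glycoprotein family, had the highest mean *atpd* percentile of the 13, at 1.60, 1.69, 1.64 and 1.64 on *atpd* arrays 1 to 4 (1.64 ± 0.0361, SD, n = 4), against 0, 0, 0 and 0.0688 in WT. Its 4 *atpd* values were within a few percent of each other and reached up to the 91.3rd percentile of their arrays, far above the single WT value. GH9B16, a glycosyl hydrolase of the endoglucanase family that cuts glucan chains, was at 1.19, 1.16, 1.02 and 0.969 in *atpd* (1.09 ± 0.108, n = 4), against 0.119, 0, 0 and 0 in WT. The *atpd* values of GH9B16 were between the 70.2nd and 81.8th percentile.

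Exostosin-family glycosyltransferases, which add sugars to wall polymers and glycoproteins, were represented by AT4G38040 and AT3G57630. AT4G38040 was at 1.02, 1.09, 0.734 and 0.703 in *atpd* (0.886 ± 0.197, n = 4) and at 0 on all WT arrays, with *atpd* arrays 1 and 2 above arrays 3 and 4. AT3G57630, known as the extensin arabinosyltransferase ExAD, was at 0.528, 0.503, 0.537 and 0.512 in *atpd* (0.520 ± 0.0154, n = 4), against 0, 0, 0.0240 and 0 in WT. The *atpd* values of AT3G57630 hardly differed between arrays, at the 32.0th to 41.7th percentile.

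Next are genes whose families are known from chromatin, DNA repair, RNA and nucleotides. The gene chr31 encodes the SNF2-type chromatin remodeller CLSY3, which helps to direct small RNA production and DNA methylation, and its probe was at 0.985, 1.003, 0.972 and 1.07 in *atpd* (1.01 ± 0.0456, n = 4) and at 0 on all WT arrays. APTX encodes an aprataxin-like protein, whose human relative repairs broken DNA ends, and its probe was at 0.793, 0.779, 0.694 and 0.723 in *atpd* (0.747 ± 0.0466, n = 4), against 0, 0, 0.00202 and 0 in WT. Both probes were steady across the *atpd* arrays. AT4G21770, a pseudouridine synthase family protein that would modify uridines in RNA, was at 1.78, 1.60, 0.919 and 0.903 in *atpd* (1.30 ± 0.456, n = 4) and at 0 in WT. *atpd* arrays 1 and 2 read AT4G21770 well above arrays 3 and 4, and its percentile ranged from the 66.1st to the 91.8th. AT2G23890, a HAD-type 5′-nucleotidase family protein, was at 0.495, 0.564, 0.397 and 0.507 in *atpd* (0.491 ± 0.0691, n = 4) and at 0 in WT.

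AT4G31930, of the mitochondrial glycoprotein family, was at 1.02, 0.872, 0.992 and 1.02 in *atpd* (0.978 ± 0.0727, n = 4), against 0, 0, 0.0371 and 0 in WT. AT1G32220, a Rossmann-fold protein found in plastoglobules, the lipid droplets of thylakoids, was the faintest of the 13 and the only one with a missing *atpd* value. It was at 0.0248, 0, 0.244 and 0.202 in *atpd*, against 0.00135, 0, 0 and 0 in WT. Most of the AT1G32220 signal in *atpd* thus came from arrays 3 and 4.

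Of the remaining genes, AT1G72890, a disease resistance protein with TIR and nucleotide-binding domains, was at 0.306, 0.273, 0.289 and 0.301 in *atpd* (0.292 ± 0.0144, n = 4) and at 0 in WT. AT2G46190 was at 0.300, 0.401, 0.397 and 0.457 in *atpd* (0.389 ± 0.0651, n = 4), against 0, 0, 0 and 0.00561 in WT. AT2G26340 was at 0.938, 0.889, 0.548 and 0.603 in *atpd* (0.744 ± 0.198, n = 4), against 0, 0, 0.0107 and 0 in WT. The rule picked all 13 genes by these same values, so their separation between the genotypes is not a result. Over the table, 2398 of the 2921 tested probes also had the higher deposited mean in *atpd*.

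For a reading that the rule did not use, the annotation was searched for other probes listing any of the 13 genes. It held a single such probe, number 3160, which lists GH9B16 together with GH9B17 and GH9B18, so that its signal cannot be given to GH9B16 alone. Probe 3160 was at 0.801, 0.753, 0.779 and 0.783 in *atpd* (0.779 ± 0.0198, n = 4), against 0.389, 0.248, 0.312 and 0.330 in WT (0.320 ± 0.0582, n = 4). The deposited values did not overlap, but the ratio of about 2.44 was near the median ratio of 1.92 over all tested probes. After quantile normalisation the log2 difference of *atpd* minus WT was 0.20 (SE 0.16, limma adjusted p = 0.324), not past the threshold of 0.05, and with the values as deposited it was 1.30 (adjusted p = 0.000147). Relative to the whole array the second GH9B probe therefore gave no called difference, while the GH9B16 probe was at 0 on 3 WT arrays.

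Among the members without a gene of their own, the 5 brightest were numbers 2692, 3149, 4175, 2666 and 4585. Probe 2692, annotated with several genes, was at 2.47, 2.48, 2.68 and 2.56 in *atpd* (2.55 ± 0.0953, n = 4), against 0, 0, 0.141 and 0 in WT, the highest *atpd* level of the whole set. Probe 3149, also with several genes, averaged 1.52 ± 0.195 in *atpd* and probe 4175, with none, 1.37 ± 0.0845 (n = 4 each), and both were at 0 on all WT arrays. Probe 2666 averaged 1.09 ± 0.145 and probe 4585 averaged 0.995 ± 0.149 in *atpd* (n = 4 each), with a single WT value above 0 (0.0102) in the first and none in the second.

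The probe numbers of the members were bunched. Another member lay within 2 numbers of 41 of the 57 (71.9%), whereas 118 of all 3439 probes (3.43%) had a member that near. Counted in consecutive runs of 6 numbers (1 to 6, 7 to 12 and so on), the members fell into 31 of the 768 runs represented in the table. Of these runs, 15 held 1 member, 7 held 2, 8 held 3 and 1 held 4. The numbers run from 1 to 4607 and 1168 of them have no row here, so some neighbours were not analysed, and the labels do not say whether consecutive numbers lie side by side on the array.

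The numbering has a period of 6 that is visible in the intensities. The 261 probes whose number is a multiple of 6 had a median of 0 in *atpd* and 0.00308 in WT, and 34.5% of them were at 0 on all 8 arrays, against 1.22% to 4.84% in the other places of the run. Of the members, 1 was in that sixth place, and 6, 10, 12, 17 and 11 were in places 1 to 5. The brightest 1% of probes, 34 in number with a mean of at least 13.7 over the 8 arrays, were in the first place of a run in 16 cases (47.1%). Of all 3439 probes, 593 were in the first place.

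Members lay near very bright probes far more often than the table as a whole. With very bright taken as the brightest 5% (172 probes with a mean of at least 2.01), 27 of the 57 members (47.4%) had such a probe within 2 numbers, against 13.3% of all probes. Within 5 numbers the shares were 89.5% of members and 30.7% of all probes. For the brightest 1% within 5 numbers they were 68.4% (39 members) and 7.33%, and among the 13 single-gene members 11 had such a probe. The 2 without one, AT3G57630 and chr31, each precede by 1 number a probe of the brightest 5%. The mirrored WT-only set stood closer to the table, with 18.2% of its 22 probes within 5 numbers of the brightest 1%, and for the 313 probes above 0 on at most 1 array of each genotype the share was 5.11%. These shares describe probe numbers, and neighbouring members share the same bright probe, so they are not independent of each other.

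Relative to the brightest 1% of probes, more members came after such a probe in number than before it. At 1, 2, 3 and 4 numbers after a probe of the brightest 1%, the members made up 31.8%, 29.6%, 30.0% and 24.1% of the probes present (7 of 22, 8 of 27, 9 of 30 and 7 of 29). At 5 numbers after it there was no member among 17 probes, and at 6, 7 and 8 numbers none among 28 probes each. At 1 to 4 numbers before it the shares were 5.26%, 7.14%, 7.41% and 7.14%. In all, 31 members lay 1 to 4 numbers after such a probe (28.7% of 108 probes), 7 others 1 to 4 numbers before (6.86% of 102), and 19 in neither place (0.595% of 3195). For the brightest 5% the sides were closer, since 17 members had such a probe among the 2 numbers before them and 13 among the 2 numbers after.

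Readings at 0 followed the same pattern on the WT arrays and not on the *atpd* arrays. Of the 108 probes that come 1 to 4 numbers after a probe of the brightest 1%, members included, 10.2%, 10.2%, 7.41% and 4.63% were at 0 on *atpd* arrays 1 to 4, against 41.7%, 38.9%, 42.6% and 35.2% on WT arrays 1 to 4. Of the 3195 probes in neither place the shares at 0 were 12.2% to 12.3% on the *atpd* arrays and 10.6% to 11.5% on the WT arrays. Since the members are among the 108 and were picked for their zeros in WT, these shares are a description.

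The very bright probes beside the members were mostly brighter in WT. Among the brightest 1%, 16 probes lay within 5 numbers of a member, and 15 of them had the lower mean in *atpd*. Their median intensity was 22.1 in *atpd* and 58.8 in WT, with WT values at the ceiling of 100 entering as they stand. The other 18 of the brightest 1% had medians of 21.3 in *atpd* and 18.6 in WT, and 10 of the 18 had the lower mean in *atpd*. In the limma fit 9 of the 16 were called lower in *atpd* and 1 higher, and 3 of the 18 lower and 7 higher, where 30.4% of all 2921 tested probes were called lower and 21.4% higher. The members themselves could not enter this fit for want of WT values. The count of 9 depended on the scaling of the arrays, since 14 were called lower without normalisation, 15 when medians were equalised and 2 under cyclic loess, which called 3 higher.

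Not only bright probes were counted around the members. Of the 77 probes within 2 numbers of a member that are not members, 60 could be tested, and 24 of these (40.0%) were called lower in *atpd* and 6 higher. Without the brightest 5% there were 38 tested, of which 10 (26.3%) were lower and 3 (7.89%) higher. Within 2 numbers, the excess of lower calls over the 30.4% of the table was thus not seen once the very bright probes were set aside. The 24 became 15 when arrays 1 and 2, and arrays 3 and 4, of a genotype formed random blocks, and 14 under cyclic loess. With medians equalised the count was 33, and without normalisation it was 21.

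Some bunches can be followed array by array. Probe 265, with no annotated gene, was at 30.9, 27.8, 17.3 and 15.8 on *atpd* arrays 1 to 4 and at the ceiling of 100 on all 4 WT arrays, so the WT level is only bounded from below. The members within 5 numbers of it are those of AT2G26340 (260), AT4G21770 (262) and AT4G38040 (268) and the unannotated probe 266, at 0.850, 0.792, 0.456 and 0.491 in *atpd* and 0 in WT. All 4 of these members read higher on *atpd* arrays 1 and 2 than on arrays 3 and 4, as probe 265 did. Other bunches did not run alike: probe 2689 was at 27.0, 26.6, 20.9 and 20.8 in *atpd*, while its member 2690 was at 0.446, 0.476, 0.867 and 0.803 in *atpd*. Members 2692 and 2693 were also lower on *atpd* arrays 1 and 2 than on arrays 3 and 4, as were members 2680 and 2681 after probe 2677, which was higher on arrays 1 and 2. In the bunch of probe 265, probe 267 lies between members 266 and 268. It narrowly missed the rule with 1.79, 1.78, 1.17 and 1.29 in *atpd* and 0, 0.573, 0 and 0.314 in WT.

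Probe 811 differed between the WT arrays. It was at 32.4, 35.0, 31.7 and 32.6 in *atpd*, against 34.2 and 45.3 on WT arrays 1 and 2 and the ceiling of 100 on WT arrays 3 and 4. The members after it are 813, 814 (AT1G32220) and 815. Probe 813 was at 0.0120, 0.0643, 0.203 and 0.246 in *atpd*, against 0, 0.0261, 0 and 0 in WT. Probe 815 was at 0.0345, 0.0701, 0.265 and 0.365 in *atpd*, against 0, 0.0634, 0 and 0 in WT. The 3 WT readings above 0 in these members, at most 1 per member by the rule, fell on WT arrays 1 and 2. Near probe 265, at the ceiling on every WT array, AT2G26340 and probe 267 also had WT readings above 0. Other bunches went both ways. Members 2666, 2667 and 2669 read above 0 on WT array 4 alone, where probe 2665 had its lowest WT value (58.3). Members 2121 and 2127 did so on WT array 2, where probe 2125 had its highest (77.3). Whether the level of a bright neighbour bears on such readings was not tested.

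A longer stretch runs from number 2653 to 2693. Its bright probes stand 12 numbers apart: 2653 (CCL), 2665 (LHB1B2, which binds chlorophyll in the light-harvesting antenna), 2677 and 2689. The LHB1B2 probe averaged 20.2 ± 2.79 in *atpd* and 62.3 ± 3.70 in WT, probe 2677 averaged 20.8 ± 2.66 in *atpd* and 66.2 ± 6.60 in WT, and probe 2689 averaged 23.8 ± 3.45 in *atpd* and 52.2 ± 13.6 in WT (SD, n = 4 each). Each was lower in *atpd* by deposited intensity, and the limma adjusted p was 0.000717, 7.32e-05 and 0.348. The 11 members of the stretch, AT2G46300 (2667) and AT2G46190 (2679) among them, all lay 1 to 4 numbers after 1 of these 4 probes.

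The ceiling was reached in another bunch. Probe 3499 was at 57.9, 57.5, 51.1 and 47.0 in *atpd* and at 100 on all 4 WT arrays, and was followed by the members 3500, 3501 and 3502. These 3 were faint in *atpd*, at 0.162, 0.207, 0.231 and 0.265 for probe 3500, and at 0 on every WT array. The next number, 3503, stood just outside the rule with 3.996, 4.17, 3.37 and 3.58 in *atpd*, against 0, 0.308, 0 and 0.0706 in WT.

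Very bright probes called higher in *atpd* had members beside them as well. Of the 33 probes of the brightest 5% within 5 numbers of a member, 4 (12.1%) were called higher and 22 (66.7%) lower. For the 139 other probes of the brightest 5% the shares were 29.5% higher and 41.7% lower. Over all tested probes they were 21.4% and 30.4%. Probe 2398 averaged 23.8 ± 3.04 in *atpd* and 13.1 ± 7.73 in WT (n = 4 each; log2 difference 1.41, SE 0.47, limma adjusted p = 0.0316), and the AT4G31930 probe is number 2396. There were 6 members with none of the brightest 5% within 5 numbers: 103, 104, 107, 539, 2266 and 2277. Probe 107 was at 1.002, 1.02, 0.865 and 0.851 and probe 539 at 0.693, 0.738, 1.01 and 0.940 in *atpd*, and both were at 0 on all WT arrays. The median *atpd* level of the 6 was 0.529, against 0.571 over all members. The part that bright neighbours, the ceiling or the period of 6 have in the zeros of the WT arrays was not tested.

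Around the threshold, 4 probes fell short by having signal on only 2 *atpd* arrays, and 40 met the *atpd* side of the rule but had signal on 2 WT arrays. The 1 single-gene probe of the first kind, that of AT5G46560, was at 0, 0, 0.206 and 0.197 in *atpd* and 0 in WT. Of the second kind 8 had a single gene, the 5 highest in *atpd* being AT2G26110, AT1G22700, AT2G38950, AT2G26100 and AT3G60590. AT2G26110 was at 1.07, 1.05, 1.20 and 1.05 in *atpd*, against 0, 0, 0.329 and 0.244 in WT. AT1G22700, the photosystem I assembly factor PYG7, was at 0.912, 0.867, 1.10 and 0.967 in *atpd*, against 0.0235, 0.00742, 0 and 0 in WT. AT2G38950 averaged 0.404 in *atpd*, AT2G26100 averaged 0.319 and AT3G60590 averaged 0.278. The median *atpd* level of the 40 was 0.310, against 0.571 in the members, and some of their WT values, such as those of AT2G26110, exceeded the highest WT value of any member (0.206). Of the 40, 13 (32.5%) lay within 5 numbers of the brightest 1%, against 7.33% of all probes. All 4 probes with signal on only 2 *atpd* arrays lay that near.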

How the data were processed

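Each array has 1 deposited intensity for each probe (4 *atpd*, 4 WT; genotype and number from the titles). How the authors corrected background or scaled the arrays is not given in the sources used here. Probes were named from the supplied platform annotation, matched to the TAIR10.1 gene table for names only. The members and lists were chosen with earlier results of these data known.

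Signal means a value above 0. Very bright means the brightest 5% (or 1%) by mean over the 8 arrays, and nearness counts probe numbers. For the whole-table fit, values at 0 were missing, log2 values were quantile-normalised, and probes with at least 3 values in each genotype were fitted with limma 3.58.1 (R 4.3.3; statmod 1.5.0), two-sided, Benjamini-Hochberg, threshold 0.05. It was tested on simulated data. Single values used scipy 1.17.1.

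Every single-gene member was named, then other probes by brightness or nearness. Same-number arrays correlated in their deviations from genotype means (r = 0.374, 0.283, 0.291 and 0.285 across probes), and the numbers were taken to pair arrays by the rule that each r exceeds 0.1. Unlike numbers within 1 and 2 or within 3 and 4 correlated about as much (r = 0.184 to 0.289), and across these sets r was -0.326 to -0.237. The rule thus did not tell pairing by number from these sets of arrays.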

Additional observations from a re-analysis of the deposited data

How the results depend on the processing

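Stricter rules kept fewer probes: 33 were above 0 on 4 *atpd* and 0 WT arrays and 35 on at least 3 *atpd* and 0 WT arrays. A signal above the 10th percentile of positive values gave 113 probes, of which 45 were members. Leaving out each array gave 57 to 83, under a looser rule. It asked for at least 2 of 3 *atpd* arrays when an *atpd* array was left out. When a WT array was left out, at most 1 of the 3 remaining WT arrays could be above 0. All 57 members pass this looser rule by construction, so these counts could not fall below 57. The median *atpd* level of 0.571 was 0.747 in the single-gene members alone, and 0.565 to 0.599 without each *atpd* array. The share of members near a very bright probe was 26.3% within 1 number, 89.5% within 5, 29.8% for the 2 numbers before and 22.8% for the 2 after, and 31.6% for the brightest 1%. With settings chosen after seeing the data it was 68.4% (brightest 1% within 5) and 77.2% (brightest 5% in the same run of 6). It exceeded the share over all probes in each of the 21 alternatives run. Neighbours called lower numbered 24, and 13 within 1 number. Within 5 numbers they were 71 of 172 tested (41.3%), against 30.4% of all tested probes. The 172 include 33 probes of the brightest 5%, of which 22 were called lower. The 24 became 33 with medians equalised, 21 without normalisation and 14 under cyclic loess. It was 15 with random blocks of arrays 1 and 2 and arrays 3 and 4. Of the 16 probes of the brightest 1% within 5 numbers of a member, 9 were called lower. That count was 14 without normalisation, 15 with medians equalised and 2 under cyclic loess, and the cause was not tested. Calls over the table fell to 924 under the same random blocks, which leave fewer independent units. A replicate block, which takes arrays of the same number as pairs, gave 1656 calls against 1513. Probe 3160 was not called with it (limma adjusted p = 0.257) or with the random blocks (limma adjusted p = 0.649). Without normalisation 1829 were higher and 260 lower, with a median difference of 0.996. The number of probes at 0 per array differed by 1.5 with members kept in and by 0.25 with signal set above the 1st percentile. Without the members it was 52.2 higher in *atpd* (exact permutation p = 0.0286), which follows from removing probes picked for zeros in WT. Of 45 groups of 4 arrays of named probes, 0 held an array far from the other 3.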
